A study of Mus musculus with 36 samples.

Results

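The effect of having a single X chromosome was compared between liver and skeletal muscle of 12 week old female mice. Each tissue was represented by 6 RNA pools of monosomic mice (XO) and 3 RNA pools of 40,XX mice, so that 18 of the 36 arrays of the series were used. The XO pools were 3 pools of 39,XpO mice and 3 pools of 39,XmO mice, taken as a single group, and each pool held RNA of 2 or 3 mice. The study's stated count of XX mice is lower than the 8 to which its XX pools sum, and whether XX pools shared a mouse is not known. The 39,XpO and 40,XX mice were bred from 40,In(X)1H/XPaf mated with 40,XY, and the 39,XmO mice from 40,XX mated with 40,XPafY*. All were random bred MF1 mice whose X descended from 1 progenitor, and the XmO mice thus differed from XX in cross as well as in X number. Whole tissue RNA was hybridised to Illumina mouse bead arrays, and the members of the comparison were the 17976 probes, of 28885 in the value table, that had values in both tissues. Of these, 13686 carried 1 current gene symbol, for 9811 genes, and 371 lay on the X chromosome.

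In female mammals most genes on 1 of the X chromosomes are silenced, under the control of the non-coding RNA Xist, while a small set of genes escapes silencing and is expressed from both copies. XO females lack the second copy of the escaping genes and have no inactive X to coat with Xist RNA. Liver is a secretory and metabolic organ and skeletal muscle a contractile organ rich in mitochondria, and both were profiled here as whole tissue.

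The array read each transcript through bead-bound oligonucleotides of 50 bases. The probes below belong to the genes on which the comparison turned, and they are printed because other probes of a gene did not always give the same result. Ndufv1 (chromosome 19) and Ndufa6 (chromosome 15) are complex I subunits with opposite interactions. Polr2f and Atf4 (both chromosome 15) are opposing genes with large differences between the tissues. Eif2s3x and Kdm6a (chromosome X, with 2 of the probes for Kdm6a) were lower in XO in both tissues.
Ndufv1: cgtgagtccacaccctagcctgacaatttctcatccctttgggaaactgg
Ndufa6: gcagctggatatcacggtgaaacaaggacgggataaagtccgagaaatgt
Polr2f: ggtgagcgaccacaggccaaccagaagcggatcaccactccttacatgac
Atf4: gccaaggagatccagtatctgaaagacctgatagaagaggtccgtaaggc
Eif2s3x: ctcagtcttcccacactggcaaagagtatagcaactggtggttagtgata
Kdm6a, first probe: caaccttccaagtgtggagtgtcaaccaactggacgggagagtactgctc
Kdm6a, second probe: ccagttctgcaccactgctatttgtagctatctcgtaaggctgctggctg

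All values are the authors' normalised log values, and an effect is the mean of the XO pools minus the mean of the XX pools of the same tissue. The interaction is the liver effect minus the muscle effect, with the sign opposite to a difference taken as XX minus XO. Set against the deposited intensities, the scale was close to log2 for bright probes, at 1.04 units per doubling between log2 intensities of 12 and 14, and compressed for dim ones, at 0.394 units per doubling below a log2 intensity of 6. Effects of genes near the bottom of the scale, at about 7, therefore understate fold changes.

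Chip identities were not given in the sources used here. The columns of the deposited intensity table follow each other in runs of 6, and the liver XO arrays filled a run of their own, while the liver XX arrays shared another with the brain XmO arrays. The muscle XO arrays likewise filled a run, while the muscle XX arrays shared another with the kidney XmO arrays. If these runs are chips, chip and genotype cannot be told apart in either tissue, for any gene described here, and no fit with the chip as a term can be made. Median intensities before normalisation were 55.6 to 59.5 in XO liver and 56.7 to 60.1 in XX liver. They were 63.4 to 67.4 in the 5 XO muscle pools whose intensity column matched its normalised values, and 58.6 to 59 in XX muscle. Each pool was amplified, labelled and hybridised in each tissue, and p-values measure the spread between these pools.

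Hepatocyte markers were high in liver (list means of 13 to 13.1 in XO and 12.9 to 13 in XX) and skeletal muscle markers were high in muscle (13.1 to 13.2 in XO and in XX), as the tissue labels say. In muscle the hepatocyte list averaged 7.73 to 9.37 in the XO pools and 7.59 to 8.09 in the XX pools, and the value of 9.37 was that of XpO pool 3, apart from the other pools. All 11 adipocyte marker probes had higher means in XO than in XX muscle, with a median difference of 0.205 and list means of 7.94 to 8.67 in XO and 7.82 to 8.25 in XX. In liver, 17 of 18 leukocyte marker probes had lower means in XO, and their list means did not overlap, at 7.82 to 7.91 in XO and 7.99 to 8.02 in XX. Fewer cells of a type and less RNA per cell cannot be told apart in whole tissue, and the part of these markers in the results below was not tested. Among the 9 marker lists, 1 of 17 leukocyte probes (5.88%) and 1 of 11 fibroblast probes (9.09%) had a called interaction, beside 9.75% of all probes. The skeletal muscle, adipocyte, red cell, exocrine pancreas and nerve lists held only 3 or 4 probes with values in both tissues, and 0 were called.

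The XO effect differed between liver and muscle for 1753 of the 17976 probes (9.75%; limma, interaction with a Benjamini-Hochberg adjusted p under 0.05). The interaction was positive for 946 of them (5.26%) and negative for 807 (4.49%), and 4821 probes passed at an unadjusted p under 0.05. Of the 1753 probes, 1654 had effects of opposite sign in the 2 tissues and 98 had effects of the same sign. Selection by a difference between the tissues itself favours opposite signs, which 57.4% of all probes had. Fitted alone, liver had 1330 probes past the adjusted threshold (7.4%), 680 higher (3.78%) and 650 lower (3.62%) in XO, and 4676 at an unadjusted p under 0.05. Muscle had 6 (0.0334%), with Abi1 and Rab33b higher and Xist, Kdm6a, Pbdc1 and Kremen1 lower in XO, and 2663 at an unadjusted p under 0.05, 1255 higher (6.98%) and 1408 lower (7.83%) in XO.

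A probe was termed opposing where the interaction passed, the effects had opposite signs and each tissue alone had an unadjusted p under 0.05. There were 631 such probes (3.51%), of which 302 (1.68%) were higher in XO liver and lower in XO muscle, and 329 (1.83%) lower in XO liver and higher in XO muscle. A probe was termed agreeing where the mean of the liver and muscle effects had an adjusted p under 0.05, as for 270 probes (1.5%), the signs were the same and each tissue had an unadjusted p under 0.05. There were 114 such probes (0.634%), 49 higher (0.273%) and 65 lower (0.362%) in XO. These splits depended on the scaling of the arrays. With arrays scaled to the same median intensity, 126 of 400 opposing probes (31.5%) were higher in XO liver, beside 47.9% with the deposited values, and 777 of 800 agreeing probes (97.1%) were higher in XO, beside 43%. A further 764 called probes had an unadjusted p under 0.05 in liver only and 344 in muscle only. Of the muscle-only probes 58.1% averaged under 7.5 in liver, where the scale is compressed, beside 49.9% of all probes.

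**Figure D1:**
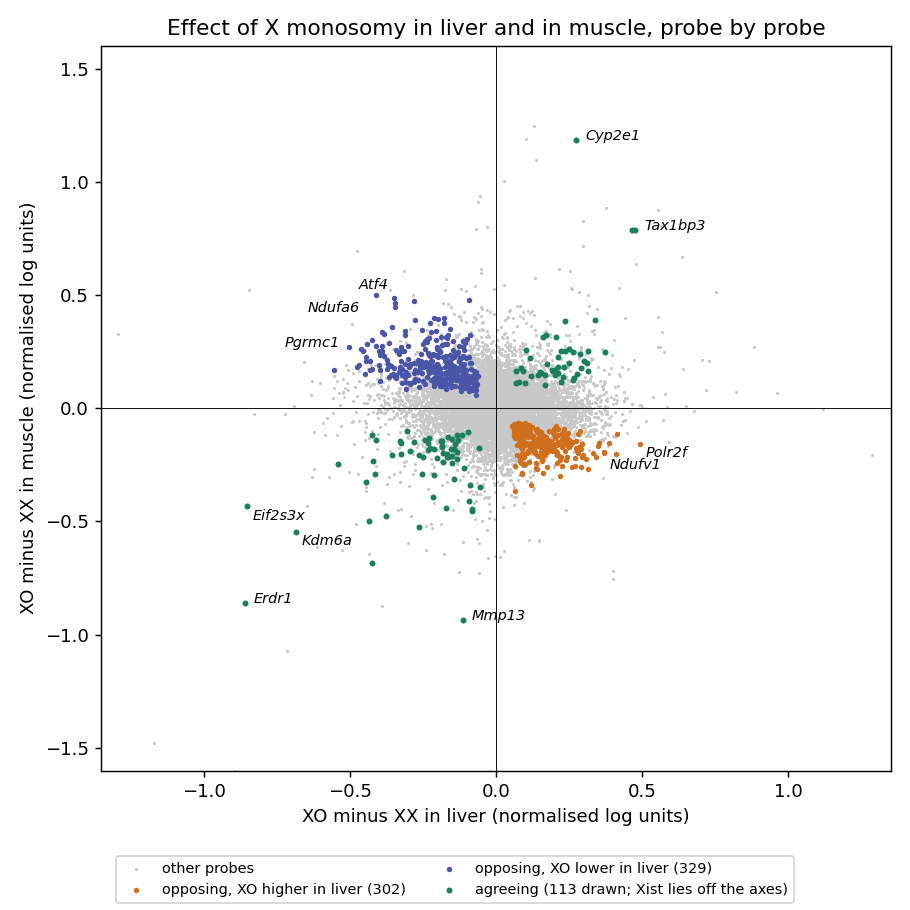
Effect of X monosomy in muscle (XO minus XX, vertical axis) against the effect in liver (horizontal axis), both in normalised log units, 1 point per probe. The 631 opposing probes lie in the upper left and lower right corners and the 114 agreeing probes (Xist lies off the axes) in the other corners, while most probes lie near 0 in both tissues.

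Across all 17976 probes, 10325 (57.4%) had effects of opposite sign in the 2 tissues and 7353 (40.9%) of the same sign. Spearman's rho between the liver and muscle effects was -0.175, and Pearson's r without Xist was -0.056. The rho was -0.14 among the brighter probes and -0.258 among the dimmer ones, split at the median level. These are descriptions across probes, which share arrays and normalisation. The median effect was 0.00333 in liver and -0.00333 in muscle, which quantile normalisation holds near 0, and 0.0578 and 0.0809 where arrays were scaled to the same median intensity in place of quantiles. With the probes in 5 equal bins by level, the share with a called interaction was 15.8% in the brightest bin and 6.31% in the dimmest.

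The opposing probes higher in XO liver, 1.68% of all probes, included 5 of 53 proteasome probes, 4 of 105 for mitochondrial ribosomal proteins and 3 of 44 for complex I. Their median effect was 0.131 in liver (0.0533 to 0.493) and -0.139 in muscle (-0.363 to -0.0633), and they stood for 226 genes, 6 of them X-linked. Polr2f, a subunit shared by the nuclear RNA polymerases, had the largest interaction of this direction among genes with a symbol. It was at 9.56, 9.67 and 9.73 in XO liver, against 9.12, 9.12 and 9.23 in XX liver (lowest, median and highest of the pools). In muscle it was at 10.38, 10.47 and 10.63 in XO muscle, against 10.50, 10.68 and 10.74 in XX muscle. The liver groups did not overlap, as held for 7.68% of all probes with XO above XX, while the muscle groups overlapped. The effect was 0.49 ± 0.04 in liver and -0.16 ± 0.07 in muscle (SE, n = 6 XO and 3 XX pools), with an interaction of 0.65 ± 0.09 (limma adjusted p = 0.00121).

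Ndufv1, the flavoprotein through which complex I takes electrons from NADH, was at 12.53, 12.62 and 12.73 in XO liver, against 12.24, 12.26 and 12.28 in XX liver. In muscle it was at 13.67, 13.77 and 13.86 in XO muscle, against 13.95, 13.95 and 13.96 in XX muscle. The groups were apart in both tissues, in opposite directions, and separation in both tissues in whatever direction was met by 1.37% of all probes (4.18% had XO below XX in muscle). The interaction was 0.57 ± 0.07 (limma adjusted p = 0.00121). Hnrnpk, a nuclear RNA-binding protein, was at 9.19, 9.38 and 9.49 in XO liver, against 8.88, 9.06 and 9.15 in XX liver, and at 9.20, 9.34 and 9.45 in XO muscle, against 9.58, 9.60 and 9.64 in XX muscle. Neither tissue had an overlap. A second Hnrnpk probe was called in the same direction (interaction 0.43), while the other 2 of its 4 probes gave 0.06 and 0.09.

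Further genes of this direction were Slc29a1, a nucleoside transporter (interaction 0.56), Trappc13, of the TRAPP trafficking complex (0.56), Ttyh2, a membrane protein of the tweety family (0.55), the histone gene H2bc9 (0.53), Psmd13, of the regulatory particle of the proteasome (0.53), Mrpl42, of the mitochondrial ribosome (0.52), and Hdgfl2, a chromatin-binding protein (0.51). Their limma adjusted p-values lay between 0.00186 for Ttyh2 and 0.0117 for Slc29a1. The liver effect was the larger for Psmd13, at 0.41 in liver and -0.11 in muscle, and Ttyh2 was even, at 0.29 and -0.26. A second probe of Ttyh2 had an interaction of 0.04, a second one of Psmd13 0.12 and of Slc29a1 0.11, and the others of Trappc13 -0.10 and -0.04, none of them called. Slc29a1 was not called without XX pool 3 in both tissues (adjusted p = 0.0727).

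The opposing probes lower in XO liver, 1.83% of all probes, included those of Atf4, Lipa and Selenop and 5 of the 44 complex I probes. Their median effect was -0.183 in liver (-0.553 to -0.0617) and 0.172 in muscle (0.06 to 0.5), for 264 genes, 11 of them X-linked. Atf4, the transcription factor of the integrated stress response, was at 9.43, 9.50 and 9.55 in XO liver, against 9.70, 9.89 and 9.93 in XX liver. In muscle it was at 10.64, 10.89 and 11.04 in XO muscle, against 10.23, 10.42 and 10.44 in XX muscle. The groups were apart in both tissues, XO below XX in liver (6.34% of all probes) and XO above XX in muscle (3%). The interaction was -0.83 ± 0.11 (limma adjusted p = 0.00132). A second Atf4 probe had mean differences of -0.24 in liver and -0.12 in muscle, with an interaction of -0.13 that was not called, so that the muscle value depended on the probe.

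Ndufa6, an accessory subunit of complex I, was at 9.06, 9.22 and 9.28 in XO liver, against 9.46, 9.55 and 9.62 in XX liver, and at 10.54, 10.60 and 10.77 in XO muscle, against 9.97, 10.17 and 10.35 in XX muscle. Selenop, the plasma protein that carries selenium out of the liver, was at 12.41, 12.53 and 12.71 in XO liver, against 12.73, 12.91 and 13.02 in XX liver, and at 9.16, 9.33 and 9.45 in XO muscle, against 8.80, 8.99 and 9.10 in XX muscle. For both genes the groups did not overlap in either tissue. The interaction was -0.79 ± 0.10 for Ndufa6 (limma adjusted p = 0.00121) and -0.71 ± 0.11 for Selenop (limma adjusted p = 0.00291).

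**Figure D2:**
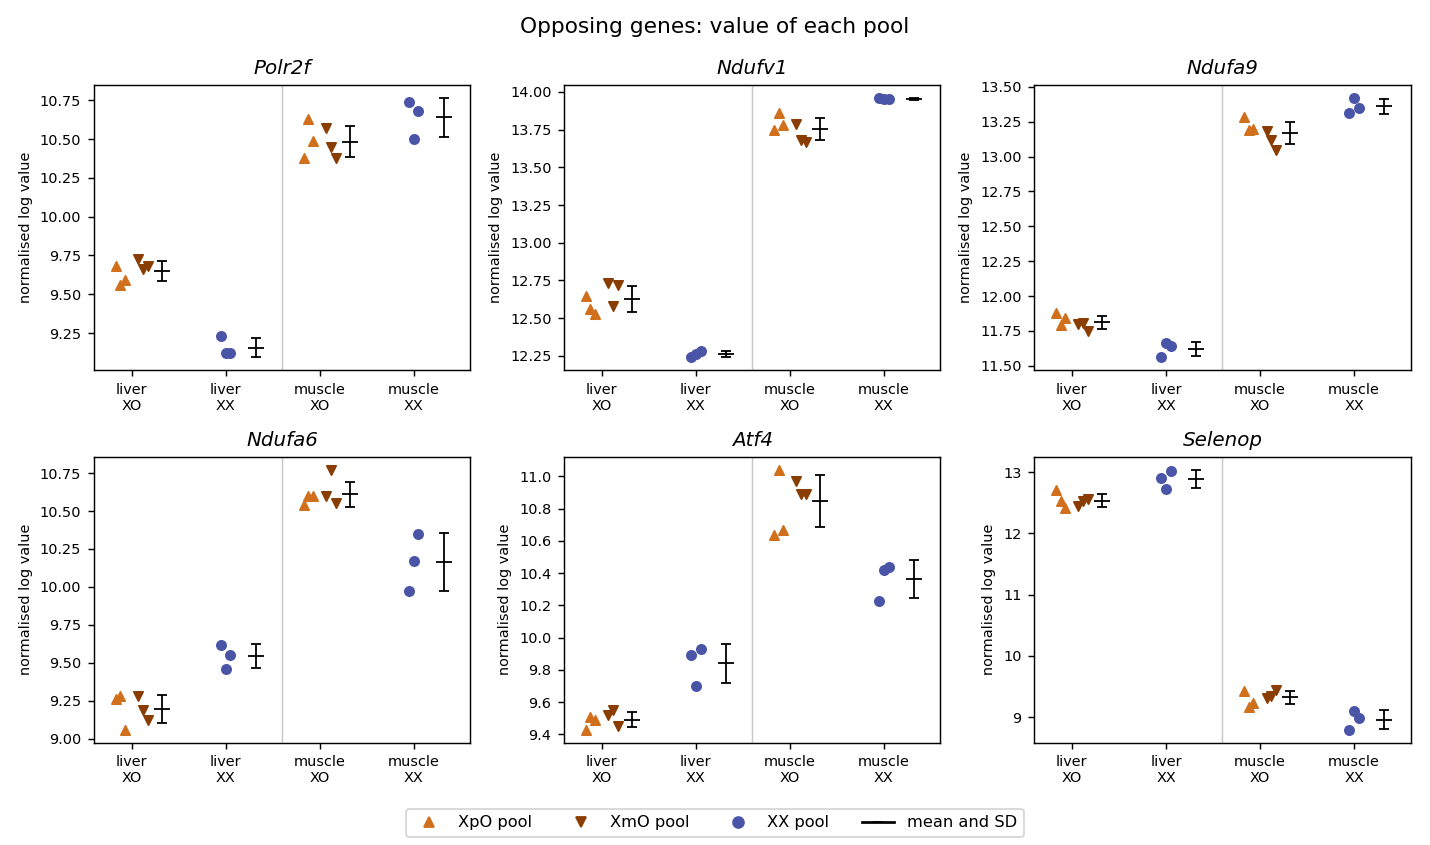
Normalised log value of each pool (vertical axis) for 6 opposing genes in XO liver, XX liver, XO muscle and XX muscle, with the mean and SD of each group beside the points. Polr2f, Ndufv1 and Ndufa9 sit higher in XO liver and lower in XO muscle on average, and Ndufa6, Atf4 and Selenop the other way round.

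Mup2 and Hsd11b1 are both strongly expressed by hepatocytes. Mup2, a major urinary protein with close paralogues that its probe may also read, was at 12.62, 13.04 and 13.15 in XO liver, against 13.12, 13.52 and 13.52 in XX liver, and at 7.77, 8.25 and 8.84 in XO muscle, against 7.47, 7.87 and 8.03 in XX muscle. The groups overlapped in both tissues. Its interaction of -0.91 ± 0.27 (limma adjusted p = 0.0439) was not called in 19 of 27 fits that left out an array or a pool, and was -0.85 (adjusted p = 0.0579) without muscle XpO pool 3, the pool with high hepatocyte markers. Hsd11b1, which regenerates active glucocorticoid, had effects of -0.34 in liver and 0.47 in muscle (interaction -0.81, limma adjusted p = 0.0324), and its interaction was -0.76 (adjusted p = 0.0427) without that pool. It was not called in 12 of the 27 fits (adjusted p up to 0.127), and its other probe had mean differences of 0.34 and 0.44. Over the 633 probes whose level in liver was above that in muscle by more than 2 units, the median muscle effect was 0.04, with 437 higher and 192 lower means in XO muscle. Of them, 18 were opposing and lower in XO liver and 3 opposing the other way, beside 1.83% and 1.68% of all probes. The 627 probes higher in muscle by more than 2 units had a median muscle effect of -0.035, with 252 higher and 372 lower means. Of these, 11 were opposing and lower in XO liver and 13 the other way.

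Lipa, the lysosomal acid lipase, was at 10.36, 10.64 and 10.74 in XO liver, against 11.03, 11.04 and 11.08 in XX liver, and at 8.02, 8.14 and 8.45 in XO muscle, against 7.85, 7.88 and 7.94 in XX muscle. No pools overlapped in either tissue, and its interaction was -0.73 ± 0.12 (limma adjusted p = 0.00299). Pgrmc1, an X-linked haem-binding membrane protein, had effects of -0.50 in liver and 0.27 in muscle (interaction -0.77, limma adjusted p = 0.00402). Ywhab, a 14-3-3 adaptor protein, Usp14, a deubiquitinase of the proteasome, and Amy1, an amylase, had interactions of -0.75, -0.73 and -0.72. A second probe of Usp14 gave 0.01. Without XX pool 3 in both tissues the adjusted p of Ywhab was 0.0654, and Amy1 was not called in 7 of the 27 fits (adjusted p up to 0.158).

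Genes with Nduf symbols were taken as complex I of the respiratory chain, which passes electrons from NADH to ubiquinone, and were read by 44 probes of 32 genes. The interaction was called for 22 of the probes (50%, beside 9.75% of all probes), 11 positive and 11 negative. Because membership went by symbol, the positive calls include Ndufa4, whose product is now placed in complex IV. Opposite signs in the 2 tissues were seen for 19 of the 22, and for 1654 of all 1753 called probes. The called probes covered 10 genes in each direction, 0 genes had called probes of both signs, and 12 genes had none called. The list as a whole had no common direction, with a median effect of 0.0433 in liver and 0.0467 in muscle. Under the alternatives run on probes, 5 to 23 of the complex I probes were called. The fewest, 5 of 44 (11.4%), came with only the XpO pools, where 0.595% of all probes were called, and XX pool 3 left out of both tissues gave 10 (22.7%, beside 2.26%).

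Subunits with positive interactions included Ndufv1, Ndufa9 (0.19 in liver and -0.19 in muscle), Ndufa8 (0.14 and -0.17), Ndufa10 (0.36 and -0.14), Ndufb7 (0.27 and -0.15) and Ndufb6 (0.27 and -0.08). Ndufa9 was at 11.75, 11.80 and 11.88 in XO liver, against 11.56, 11.64 and 11.66 in XX liver, and at 13.05, 13.18 and 13.28 in XO muscle, against 13.31, 13.35 and 13.42 in XX muscle. The pools of the 2 groups were apart in each tissue, with an interaction of 0.38 ± 0.06 (limma adjusted p = 0.00295). Ndufs3 and Ndufa7 had liver effects of 0.29 and 0.24 and muscle effects of 0.01 and 0.01. Second probes of Ndufa10 and Ndufs3 were not called (interactions of 0.13 and 0.12).

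Subunits with negative interactions included Ndufa6, Ndufb9 (-0.25 in liver and 0.28 in muscle), X-linked Ndufa1 (-0.20 and 0.27), Ndufb5 (-0.22 and 0.23) and Ndufb8 (-0.14 and 0.13, with a second probe at 0 for the interaction and not called). Ndufb9 was at 9.06, 9.14 and 9.19 in XO liver, against 9.35, 9.36 and 9.42 in XX liver, and at 10.47, 10.66 and 10.71 in XO muscle, against 10.11, 10.37 and 10.50 in XX muscle. The liver groups of Ndufb9 were apart and the muscle groups overlapped, with an interaction of -0.53 ± 0.10 (limma adjusted p = 0.00488). Ndufs4 had 2 called probes (-0.33 and -0.27 in liver, 0.09 and 0.12 in muscle) and 1 further probe that was not called (-0.01 and -0.08). Ndufb10 had the largest differences of means of the list, -1.17 in liver and -1.48 in muscle, and was not called, its XO pools having SDs of 1.45 and 1.92.

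**Figure D3:**
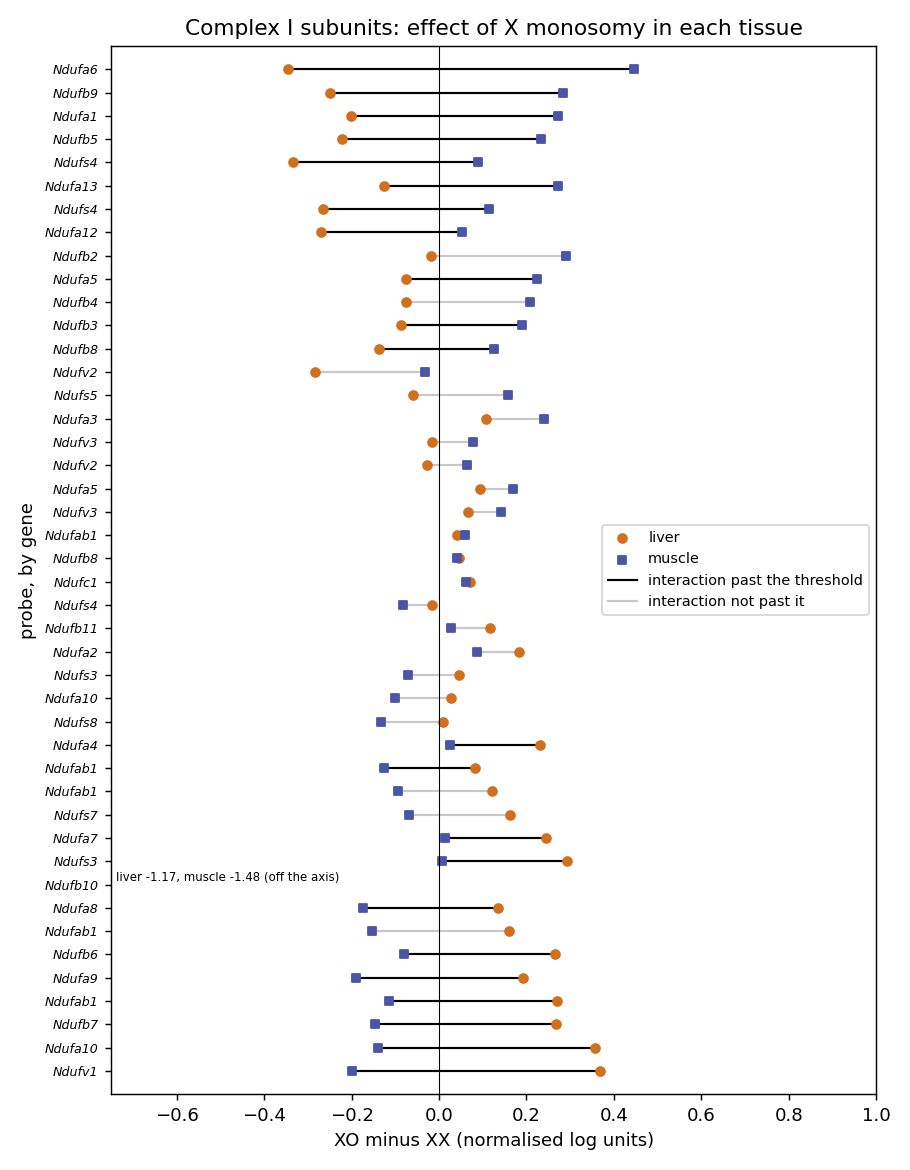
Effect of X monosomy (XO minus XX, normalised log units, horizontal axis) in liver (circles) and muscle (squares) for the 44 complex I probes, in order of the interaction, with a dark line where the interaction passed an adjusted p of 0.05. The 22 called probes split into 11 with the liver effect below the muscle effect and 11 with it above.

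Of the other respiratory complexes, 11 of 49 probes were called (22.4%, beside 9.75% of all probes), 3 positive and 8 negative. The gene lists were not matched to all probes by level, and the brightest of the 5 bins had 15.8% called. The negative ones included the ATP synthase subunits Atp5md (interaction -0.46), Atp5e (-0.41) and Atp5pb (-0.34) and the cytochrome oxidase subunit Cox6c (-0.52), while Uqcrc2, of complex III, was positive (0.40). Cox6c was at 12.47, 12.86 and 12.93 in XO liver, against 13.11, 13.21 and 13.24 in XX liver, and at 13.97, 14.08 and 14.22 in XO muscle, against 13.91, 13.98 and 14.01 in XX muscle. Its groups were apart in liver and overlapped in muscle. In muscle, 10 of the 49 probes were higher in XO and 0 lower at an unadjusted p under 0.05, with a list median of 0.055, beside 6.98% higher and 7.83% lower of all probes. The other probe of Atp5pb had an interaction of 0.13. Without XX pool 3 in both tissues the adjusted p of Cox6c was 0.0592 and that of Atp5pb 0.0817, and without XX pool 2 in both that of Uqcrc2 was 0.0529.

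The proteasome list had 9 positive and 1 negative calls among 53 probes (18.9%, beside 9.75% of all probes). Among them were the ATPase Psmc5 (0.45) and the core subunit Psmb7 (0.51), with Psmd12 as the exception (-0.37). Psmc5 was at 10.04, 10.16 and 10.24 in XO liver, against 9.85, 9.89 and 9.92 in XX liver, and at 11.05, 11.14 and 11.29 in XO muscle, against 11.20, 11.38 and 11.41 in XX muscle. The liver groups were apart and the muscle groups overlapped, and its other probe was not called (-0.17). All 3 probes of Psmb7 were opposing, with interactions of 0.51, 0.36 and 0.37. Mitochondrial ribosomal proteins had 10 positive and 2 negative calls among 105 probes (11.4%, beside 9.75% of all probes), and in liver alone 18 were called higher (3.78% of all probes) and 3 lower (3.62%) in XO.

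Cytosolic ribosomal proteins had 2 positive and 9 negative calls among 61 probes (18%, beside 9.75% of all probes). Their median effect was -0.005 in liver and 0.102 in muscle, where 21 probes were higher (6.98% of all probes) and 2 lower (7.83%) in XO at an unadjusted p under 0.05. Rps20 (interaction -0.34), Rps3 (-0.51) and Rpl36a (-0.42) were among the negative ones and Rpl10a (0.33) was positive. Rpl36a, which is X-linked, was at 12.67, 12.77 and 12.85 in XO liver, against 12.74, 12.78 and 12.82 in XX liver, and at 13.00, 13.06 and 13.16 in XO muscle, against 12.46, 12.68 and 12.82 in XX muscle. Its groups overlapped in liver and were apart in muscle. Other probes of Rps20, Rps3 and Rpl10a were not called (-0.07, -0.06 and -0.15). Without XX pool 1 in both tissues Rps3 was not called (adjusted p = 0.0706).

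Translation initiation factors had 7 positive and 5 negative calls among 68 probes (17.6%, beside 9.75% of all probes). Eif2b2, a subunit of the factor that recharges eIF2 with GTP, was at 8.20, 8.25 and 8.28 in XO liver, against 8.01, 8.02 and 8.03 in XX liver, and at 8.48, 8.58 and 8.71 in XO muscle, against 8.78, 8.81 and 8.93 in XX muscle. The groups were apart in both tissues in opposite directions, and the interaction was 0.48 ± 0.06 (limma adjusted p = 0.00121). Eif2b5, of the same factor, had effects of 0.26 in liver and -0.04 in muscle, and Eif2s2, a subunit of eIF2 itself, had -0.09 and 0.21. Both had a second probe that was not called (0.06 for Eif2b5 and -0.01 for Eif2s2), and neither was called without XX pool 3 in both tissues (adjusted p = 0.0832 for Eif2b5 and 0.0611 for Eif2s2). Eif4h, a helicase cofactor, had 0.33 and -0.10.

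In fatty acid oxidation, 5 of 34 probes were called (14.7%, beside 9.75% of all probes), all of them negative. Cpt2, the inner membrane carnitine transferase, was at 10.44, 10.61 and 10.69 in XO liver, against 10.67, 10.75 and 10.86 in XX liver, and at 10.29, 10.46 and 10.55 in XO muscle, against 9.93, 10.09 and 10.10 in XX muscle. The muscle groups were apart and the liver groups overlapped, with an interaction of -0.57 ± 0.09 (limma adjusted p = 0.00297) and a second opposing probe (-0.34). Ehhadh, a peroxisomal enzyme of the pathway, had effects of -0.56 in liver and 0.09 in muscle. Among the enzymes of the tricarboxylic acid cycle, 7 of 31 probes were called (22.6%, beside 9.75% of all probes). Of these, 3 were positive, among them Suclg1 (0.42, with a second probe at -0.09). The 4 negative ones included Dld (-0.43, with a second probe at -0.25) and Sdhd (-0.46). These last 3 were not called without XX pool 2 (Suclg1, adjusted p = 0.0586) or XX pool 3 (Dld, 0.112, and Sdhd, 0.0858) in both tissues. Lists with a share called below that of all probes were glycolysis (5.88% of 17), lipogenesis (5.26% of 19), cholesterol synthesis (3.45% of 29), the circadian clock (0 of 19) and immediate early genes (0 of 13). Chaperones (7.59% of 79), the spliceosome (8.22% of 73), ubiquitin-conjugating enzymes and ligases (9.59% of 73), matrix genes (6.06% of 33), acute phase genes and metallothioneins (9.09% of 22), antioxidant enzymes (4% of 50) and calcium handling genes of muscle (6.25% of 16) were below it too, and slow and fast fibre genes had 0 calls of 7 and 2 probes. Cytochrome P450 genes had 11.1% of 45 and the urea cycle 11.1% of 9, beside 9.75% of all probes.

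The agreeing probes lower in XO included Xist and genes listed as escaping X inactivation. Of the 65 probes, 9 were X-linked, for Xist, Erdr1, Eif2s3x, Kdm6a, Kdm5c and Pbdc1, the last of which the study proposed from these samples. Xist was at 7.08, 7.11 and 7.15 in XO liver, against 11.10, 11.14 and 11.27 in XX liver, and at 7.07, 7.11 and 7.16 in XO muscle, against 9.79, 9.83 and 9.97 in XX muscle. The XO pools were at the bottom of the scale in both tissues, as a single X implies, and the XX level was higher in liver than in muscle. The effects of -4.06 in liver and -2.75 in muscle are therefore bounds, and no order between the tissues is read from them.

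Eif2s3x, the X-linked gene of the gamma subunit of eIF2, was at 8.72, 8.76 and 8.79 in XO liver, against 9.53, 9.57 and 9.73 in XX liver, and at 9.25, 9.40 and 9.53 in XO muscle, against 9.70, 9.89 and 9.91 in XX muscle. No XO pool reached the lowest XX pool in either tissue. The effect was -0.85 ± 0.04 in liver and -0.43 ± 0.07 in muscle, and the difference between them was itself called (interaction -0.42 ± 0.08, limma adjusted p = 0.00746). Pbdc1 was at 8.87, 9.00 and 9.07 in XO liver, against 9.15, 9.26 and 9.33 in XX liver, and at 9.06, 9.13 and 9.22 in XO muscle, against 9.54, 9.66 and 9.76 in XX muscle. Its groups were apart in both tissues too, with the larger effect in muscle (-0.26 in liver and -0.52 in muscle). Its interaction of 0.26 ± 0.08 (limma adjusted p = 0.039) was not called in 18 of 27 fits without an array or pool (adjusted p up to 0.147), whereas its mean effect was called in all 27.

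Kdm6a, a demethylase of histone H3, was read by 3 probes, all agreeing and lower in XO. The first was at 8.30, 8.41 and 8.55 in XO liver, against 9.00, 9.14 and 9.17 in XX liver, and at 8.97, 9.12 and 9.28 in XO muscle, against 9.57, 9.63 and 9.79 in XX muscle. Its groups were apart in both tissues. The second gave effects of -0.42 in liver and -0.68 in muscle and the third -0.21 and -0.18. The interaction was not called for any of them (-0.14, 0.26 and -0.03, with limma adjusted p of 0.386, 0.0793 and 0.79). Erdr1 had effects of -0.86 in liver and -0.86 in muscle, at 7.84, 8.19 and 8.43 in XO liver, against 8.95, 9.00 and 9.15 in XX liver, without overlap. Of the 13 escape gene probes, 9 were agreeing and lower in XO, beside 0.362% of all probes. The list median was -0.263 in liver and -0.392 in muscle. This list holds Xist, which is transcribed from the inactive X only, and Pbdc1, which the study proposed from these samples. The count is therefore in part not independent of these data. Ddx3x and Usp9x, both of the list, were not agreeing, and 1 of the Usp9x probes had effects of -0.08 in liver and 0.10 in muscle with a called interaction (limma adjusted p = 0.0295), the other 0.06 and 0.07. The XO liver pools of the called Usp9x probe were at 7.09 or below, at the bottom of the scale. Histone demethylases, which overlap that list, had 4 agreeing probes and 0 called interactions among 8 probes.

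Of the agreeing genes higher in XO, Vgll4, a cofactor of the TEAD transcription factors, was at 8.35, 8.47 and 8.59 in XO liver, against 8.04, 8.18 and 8.26 in XX liver, and at 8.30, 8.38 and 8.49 in XO muscle, against 8.08, 8.15 and 8.16 in XX muscle. Mrpl12, of the mitochondrial ribosome, was at 11.52, 11.62 and 11.72 in XO liver, against 11.32, 11.38 and 11.42 in XX liver, and at 12.12, 12.19 and 12.31 in XO muscle, against 11.87, 11.89 and 12.05 in XX muscle. The groups of both genes were apart in both tissues. The mean effect was 0.28 ± 0.04 for Vgll4 (limma adjusted p = 0.00293) and 0.26 ± 0.04 for Mrpl12 (limma adjusted p = 0.00207), and both calls held in all 27 fits without an array or pool. Tax1bp3, a PDZ domain protein, had effects of 0.48 and 0.79, with a second probe at 0.47 and 0.79, and Armc10 had 0.34 and 0.39. Tax1bp3 was not called in 8 of the 27 fits (adjusted p up to 0.121) and Armc10 was not without XX pool 3 in both tissues (adjusted p = 0.0543).

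Cyp2e1, the ethanol-oxidising cytochrome P450, had the largest mean effect among the agreeing genes higher in XO, 0.73 ± 0.18 (limma adjusted p = 0.0493). It was at 15.13, 15.29 and 15.45 in XO liver, against 14.93, 14.94 and 15.15 in XX liver, and at 11.47, 12.12 and 13.09 in XO muscle, against 10.51, 11.02 and 11.43 in XX muscle. The muscle groups were apart and the liver groups overlapped. Its other probe had a mean effect of 0.69 that was not called (adjusted p = 0.0626). It was not called in 22 of 27 fits (adjusted p up to 0.218), and without muscle XpO pool 3 the mean effect was 0.77 (adjusted p = 0.0432). The mean effects of Fmc1 (0.26), Ccdc126 (0.26), the ficolin Fcna (0.26), Rps29 (0.26) and Ilvbl (0.24) were not called in 19, 17, 20, 22 and 13 of the fits. The other probes of Ilvbl had mean effects of 0.02 and 0.06.

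Among autosomal genes lower in XO, Ptgds, a prostaglandin synthase, was at 7.60, 7.72 and 7.83 in XO liver, against 8.22, 8.24 and 8.33 in XX liver, and at 7.03, 7.09 and 7.12 in XO muscle, against 7.07, 7.45 and 7.46 in XX muscle. Its groups were apart in liver and overlapped in muscle, with a mean effect of -0.39 (limma adjusted p = 0.000848). Tpmt (-0.39), Atxn1 (-0.43), the water channel Aqp4 (-0.31) and the collagenase Mmp13 (-0.53) were agreeing as well. Mmp13 was at 6.95, 7.01 and 7.05 in XO muscle, against 7.28, 8.10 and 8.44 in XX muscle, so that the XX muscle pools ranged widely, and its interaction was called too (0.82). In liver Mmp13 was at 6.99, 7.05 and 7.07 in XO liver, against 7.11, 7.14 and 7.22 in XX liver, and Aqp4 at 6.89, 7.02 and 7.06 in XO liver, against 7.13, 7.15 and 7.25 in XX liver. These liver values lie at the bottom of the scale in all pools, so that the agreement of Mmp13 and Aqp4 rests on levels near background. The XO muscle pools of Ptgds and its lowest XX muscle pool were at the bottom of the scale too. The other probe of Tpmt had effects of -0.34 in liver and 0 in muscle, and that of Aqp4 0.04 and -0.22, with a called interaction (0.26). In fits without an array or pool, the mean effect was not called in 4 of 27 for Tpmt, 20 for Atxn1, 2 for Aqp4 and 4 for Mmp13, among them those without liver XX pool 3 (adjusted p = 0.0519, 0.0948, 0.0519 and 0.0571). With only the XpO pools against XX the mean effect was -0.26 for Tpmt (adjusted p = 0.129) and -0.25 for Atxn1 (adjusted p = 0.307), and with only the XmO pools, against the same XX arrays, -0.51 and -0.60.

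**Figure D4:**
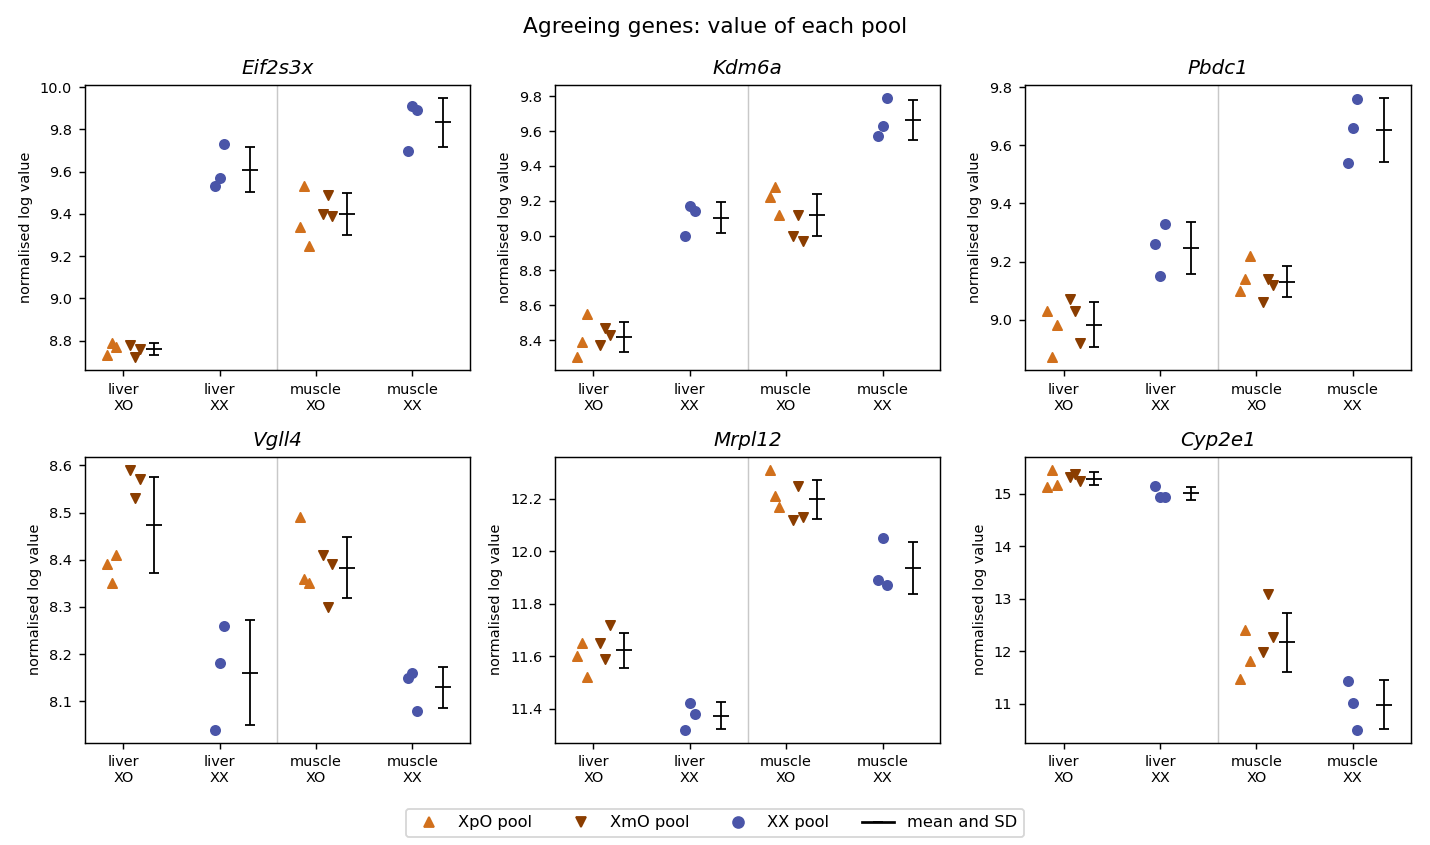
Normalised log value of each pool (vertical axis) for 6 agreeing genes in XO liver, XX liver, XO muscle and XX muscle, with the mean and SD of each group beside the points. Eif2s3x, Kdm6a and Pbdc1 lie below XX in both tissues without overlap, and Vgll4, Mrpl12 and Cyp2e1 lie above on average, with overlap only for Cyp2e1 in liver.

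On the X chromosome, 49 of 371 probes were called by the interaction (13.2%), 18 positive and 31 negative, beside 9.92% of the 13294 autosomal probes. Opposing X-linked probes numbered 17 (4.58%, beside 3.63% of autosomal probes), of which 11 were lower in XO liver and higher in XO muscle. The study's own list of X-linked genes was chosen on these samples, so neither its liver direction nor its interactions, which hold the liver effect, are independent evidence. Of its 44 probes, 25 were called lower and 0 higher in XO liver, whereas in muscle 8 were higher and 7 lower at an unadjusted p under 0.05. Its median effect was -0.187 in liver and 0.00417 in muscle, and 18 of its probes had a called interaction (40.9%), 17 of them negative.

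Within that list, Ndufa1, Pgrmc1, the acyl-CoA synthetase Acsl4 (interaction -0.47), the nucleosome-binding Hmgn5 (-0.63), the scaffold Cask (-0.31) and the centrin Cetn2 (-0.38) were opposing. Hmgn5 was at 9.66, 9.87 and 10 in XO liver, against 10.13, 10.29 and 10.34 in XX liver, and at 9.85, 10.09 and 10.23 in XO muscle, against 9.65, 9.91 and 9.95 in XX muscle. The liver groups were apart and the muscle groups overlapped. Of the 4 probes of Acsl4, the other 3 were not called (-0.18, 0.12 and 0), while a second probe of Cask was called in the same direction (-0.25). Without XX pool 3 in both tissues Acsl4, Cask and Cetn2 were not called (adjusted p = 0.0588, 0.0694 and 0.0897).

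Other X-linked genes of the list had lower XO values in liver and did not pass an unadjusted p of 0.05 in muscle. Lamp2, a lysosomal membrane protein, was at 9.38, 9.46 and 9.48 in XO liver, against 9.75, 9.84 and 9.86 in XX liver, and at 7.23, 7.32 and 7.41 in XO muscle, against 7.24, 7.33 and 7.40 in XX muscle. All its muscle pools lay low on the scale, where values are compressed. Its liver groups were apart and its muscle groups overlapped. The same order held for Ddx3x, an RNA helicase (-0.58 in liver and -0.12 in muscle), Pja1 (-0.30 and 0), Zdhhc9 (-0.26 and 0.09), Slc6a8, the creatine transporter (-0.31 and 0.04), Maob, a monoamine oxidase (-0.22 and 0.04), Huwe1 (-0.39 and 0.06) and Ogt (-0.15 and 0.09). Lamp2 and Huwe1 each had 3 further probes, none of which was called (-0.14, -0.02 and -0.03 for Lamp2 and 0.07, -0.07 and 0.02 for Huwe1). Other probes of Pja1 (0.03) and Ogt (0.21) were not called either. The interaction of Lamp2 and Zdhhc9 was called in all 27 fits without an array or pool, and that of Huwe1 was not in 12, of Slc6a8 in 18, of Ogt in 20, of Ddx3x in 5, of Maob in 4 and of Pja1 in 3, those without XX pool 3 in both tissues among them (adjusted p = 0.122, 0.109, 0.0874, 0.142, 0.159 and 0.107). By quantitative PCR the study did not establish higher expression in XX liver for Lamp2, Pgrmc1, Hmgn5, Ndufa1, Maob, Ogt, Pja1 or Pbdc1. It did so for Ddx3x, Eif2s3x, Kdm6a and Kdm5c. In muscle the study reported significantly higher XX expression by quantitative PCR for these genes and for Pbdc1. In its allelic tests, in mice of another cross, only the active X allele of Huwe1 and Hmgn5 was detected.

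Among genes with a called interaction and an unadjusted p under 0.05 in liver only was Chordc1, a co-chaperone of HSP90. It was at 10.92, 10.98 and 11.06 in XO liver, against 9.99, 10.40 and 10.53 in XX liver. In muscle it was at 11.41, 11.57 and 11.68 in XO muscle, against 11.38, 11.61 and 11.69 in XX muscle. The liver groups were apart and the muscle groups overlapped, and the interaction was 0.69 ± 0.13 (limma adjusted p = 0.00607). Mrpl46 (0.56), Polr1d, a subunit shared by RNA polymerases I and III (0.52), Aamdc (0.51) and Sec13, of the COPII coat (0.51), followed. The other Polr1d probe was not called (0.10). These 4 genes were not called without XX pool 3 in both tissues (adjusted p = 0.0527, 0.118, 0.115 and 0.0993).

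Ass1, the argininosuccinate synthase of the urea cycle, was at 13.58, 13.64 and 13.81 in XO liver, against 14.28, 14.29 and 14.42 in XX liver. In muscle it was at 7.69, 7.80 and 8.73 in XO muscle, against 7.63, 7.65 and 7.93 in XX muscle, with the highest XO value again in XpO pool 3. The liver groups were apart and the muscle groups overlapped. Its interaction was -0.86 (limma adjusted p = 0.0289), and -0.70 (adjusted p = 0.00195) without that pool, and it was not called in 8 of 27 fits (adjusted p up to 0.152). Ctnnb1, the gene of beta-catenin, had -0.75, with 2 further probes not called (0.16 and -0.01). Lacc1, Wfdc21 and Cpeb4 had -0.71 (other probe -0.13), -0.70 and -0.67, and none of the 3 was called without XX pool 3 in both tissues (adjusted p = 0.0638, 0.154 and 0.0728).

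Among genes with a called interaction and an unadjusted p under 0.05 in muscle only was Synpo2l, a protein of the sarcomere. It was near the bottom of the scale in liver, at 7.17, 7.18 and 7.20 in XO liver, against 7.13, 7.15 and 7.19 in XX liver. In muscle it was at 11.80, 12.00 and 12.18 in XO muscle, against 12.39, 12.42 and 12.50 in XX muscle. The muscle groups were apart, the interaction was 0.46 ± 0.08 (limma adjusted p = 0.00326), and a second probe was called in the same direction (0.43). Lamb2, a laminin chain (0.49), Exoc7, of the exocyst (0.52), and Cd8b1 (0.58) also had lower XO values in muscle. The second Exoc7 probe gave -0.17, and Cd8b1 was not called without liver XX pool 3 (adjusted p = 0.0618).

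Thbd, thrombomodulin, was at 7.07, 7.09 and 7.19 in XO liver, against 7.11, 7.18 and 7.20 in XX liver, and at 8.88, 8.96 and 9.16 in XO muscle, against 8.45, 8.52 and 8.68 in XX muscle. The muscle groups were apart, and the interaction was -0.48 ± 0.08 (limma adjusted p = 0.00371). Ifi27l2a, an interferon-induced gene (-0.97), Pla1a, a phospholipase (-0.57), Rbm47 (-0.51) and Rpl36 (-0.50) had calls that were absent in 18, 16, 21 and 19 of 27 fits. Other probes of Pla1a and Rbm47 gave 0.09 and 0. Actb, encoding beta-actin, was called by 3 of its 4 probes with both signs (0.46, -0.45 and -0.34, and 0.46 by the probe not called), so that it has no single direction here.

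Probes of a gene did not always give the same sign. Of 58 genes with 2 or more called probes, 41 had calls of 1 sign and 17 had calls of both signs. An opposing probe and another probe of its gene had interactions of the same sign in 210 of 354 pairs (59.3%), and in 57 of the pairs the other probe was called too. Among all pairs of probes of a gene the share was 54.7% of 5173, and it was 57.9% of the 1718 pairs with both probes above the median level. For agreeing probes the mean effect had the same sign in 46 of 64 pairs (71.9%).

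The cross of the XpO and XX pools was the same, whereas the XmO pools came from another. With only the XpO pools against XX, 107 probes were called by the interaction, and with only the XmO pools 1151, comparisons that use the same XX arrays. For Ndufv1 the XpO mean differed from XX by 0.32 in liver and -0.16 in muscle, and the XmO mean by 0.42 and -0.24. For Atf4 the values were -0.36 and 0.42 with XpO and -0.33 and 0.55 with XmO. For Eif2s3x they were -0.85 and -0.46 with XpO and -0.86 and -0.41 with XmO, and for Erdr1 -0.64 and -0.66 with XpO and -1.08 and -1.06 with XmO.

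In kidney and brain, the XpO and XX arrays of a tissue stood in the same run of columns. The 300 opposing probes higher in XO liver that had values there showed a median XpO minus XX difference of 0.03 in kidney (200 higher and 94 lower) and 0.00333 in brain (152 and 142), beside 0.00667 and 0 over all 17020 probes. The 316 probes lower in XO liver had -0.0333 in kidney (118 higher and 195 lower) and -0.01 in brain (141 and 170). The 63 agreeing probes lower in XO had -0.0433 in kidney (20 higher and 43 lower) and -0.0767 in brain (14 and 48).

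The XmO arrays of kidney and brain stood in other runs than the rest of their tissue. The median difference of XmO from the rest was 0.0417 in kidney and -0.0783 in brain for the opposing probes higher in XO liver, and -0.09 and 0.134 for those lower in XO liver. Over 17019 probes, Spearman's rho of the liver effect was 0.292 with the XmO difference in kidney and -0.297 with that in brain, and the muscle effect had -0.172 and 0.318. With the XpO minus XX difference within a run, the liver effect had 0.22 in kidney and 0.0714 in brain, and the muscle effect -0.0589 and 0.0602. The brain XmO arrays share a run with the liver XX arrays and the kidney XmO arrays share one with the muscle XX arrays, and the part of the runs in these values was not tested.

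The number of called probes depended on the XX pools. Without liver XX pool 3 the interaction was called for 715 probes, of which 350 were opposing, and without XX pool 3 in both tissues for 406, of which 210 were opposing. Scaling each array to the same median intensity gave 1201 probes, of which 518 (43.1%) were positive, beside 946 of 1753 (54%) with the deposited normalisation. It also gave 868 calls in muscle alone, of which 831 were higher in XO.

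**Figure D5:**
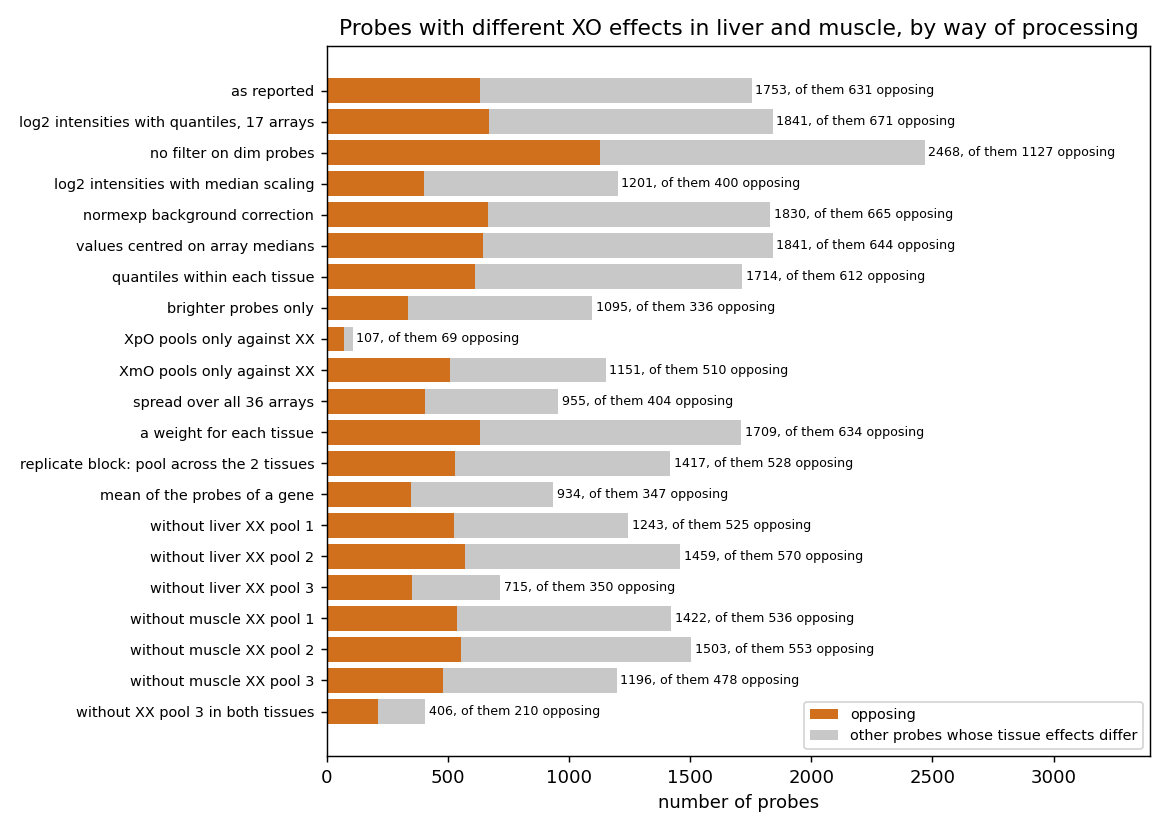
Number of probes whose XO effect differed between liver and muscle (bar length, horizontal axis) by way of processing or sample left out, with opposing probes in the darker part. The count is 1753 with the deposited values, 107 with only XpO pools and 406 without XX pool 3 in both tissues.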

How the data were processed

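RNA of liver, kidney, muscle and brain was hybridised to Illumina Mouse WG-6 v1_1 BeadChips, and the 18 liver and muscle arrays were used. The authors summarised the beads of each probe in BeadStudio (version not given in the sources used here) and normalised by quantiles on a log scale with lumi, and the deposited values are described as log2 here although they are compressed below log2 at low signals. Probes not detected in a tissue are blank in the deposited table, so that 17976 of 28885 probes could be tested. The authors also deposited bead intensities before normalisation, used only for alternative settings and array checks. The intensity column of 1 muscle array (XpO pool 3) did not follow its normalised values (rank correlation -0.0374) and was left out, so that 17 arrays entered those settings. On bead arrays the number of pools limits the precision.

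limma 3.58.1 in R 4.3.3 was fitted to 4 groups (XO and XX in each tissue) for the interaction and the mean effect, and to each tissue alone for the tissue effects, as the study fitted each tissue with a pair of genotype groups. Tests were two-sided with Benjamini-Hochberg adjustment over all 17976 probes at 0.05, also where an array or pool was left out, and the fits were tested on simulated data. Python 3.11.15, pandas 2.3.3, numpy 2.4.6, scipy 1.17.1 and matplotlib 3.10.9 were used for summaries. Gene symbols of the platform annotation were updated through RefSeq tables.

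Genes with 1 symbol were named by rule. These were the 10 genes of largest interaction among opposing probes in each direction, the 10 agreeing genes of largest mean effect in each direction, the 5 genes of largest interaction for each tissue and direction among those with a called interaction and an unadjusted p under 0.05 in 1 tissue only, the X-linked genes that the study names, and up to 5 genes of a described list with the smallest interaction p. Further complex I subunits were named after their values were seen, to cover both directions, as were the 6 probes called in muscle alone. A gene was represented by its probe of smallest p. The members and gene lists were chosen with earlier results of these data known. Alternatives were other normalisations and background correction, filters on dim probes, a replicate block, XpO or XmO pools only, the spread over all 36 arrays, tissue weights, gene means, and leaving out each array, or each pool in both tissues.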

Additional observations from a re-analysis of the deposited data

Results flagged for a closer look

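Among 242 groups of 6 XO pools, 15 held a pool apart from the other 5, by the ratio of the gap to the range (Dixon's test at 95%), which chance alone flags in about 1 of 20 groups. In muscle, the lowest XO pool was apart for Hdgfl2 (XpO pool 2, 9.9), Hsd11b1 (XpO pool 1, 8.98), Rbm47 (XpO pool 1, 7.81), Zdhhc9 (XmO pool 3, 8.01), Kdm5c (XpO pool 3, 7.28), Psmd12 (XpO pool 3, 8.41) and Etfa (XmO pool 3, 12.19). In muscle, the highest XO pool was apart for Ndufa6 (XmO pool 2, 10.77), Ass1 (XpO pool 3, 8.73), Pja1 (XmO pool 2, 9.88), Atp5md (XmO pool 2, 8.68) and Atp5pb (XpO pool 1, 8.5). In liver, the lowest XO pool was apart for Lacc1 (XmO pool 3, 8.71). In liver, the highest XO pool was apart for Msn (XmO pool 1, 7.29) and Usp9x (XmO pool 2, 7.09).

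The effects of X monosomy differed between liver and muscle for 1753 probes by the interaction test. The 106 genes among them named by rule or on the complex I list are given here with the interaction of 1 probe each. Opposing genes higher in XO liver and lower in XO muscle were Polr2f (0.65), Hnrnpk (0.58), Ndufv1 (0.57), Slc29a1 (0.56), Trappc13 (0.56), Ttyh2 (0.55), H2bc9 (0.53), Psmd13 (0.53) and Mrpl42 (0.52). The same pattern was called for Hdgfl2 (0.51), Ndufa9 (0.38), Mrps33 (0.33), Rpl10a (0.33), Psmc5 (0.45), Psmb7 (0.51), Eif2b2 (0.48) and Ndufa8 (0.31). Opposing genes lower in XO liver and higher in XO muscle were Mup2 (-0.91), Atf4 (-0.83), Hsd11b1 (-0.81), Ndufa6 (-0.79), Pgrmc1 (-0.77), Ywhab (-0.75), Usp14 (-0.73), Lipa (-0.73) and Amy1 (-0.72). The same pattern was called for Selenop (-0.71), Ndufa1 (-0.47), Acsl4 (-0.47), Hmgn5 (-0.63), Cask (-0.31), Cetn2 (-0.38), Ndufb9 (-0.53), Atp5e (-0.41) and Cox6c (-0.52). Also of this kind were Mrps15 (-0.60), Rps3 (-0.51), Rpl23 (-0.37), Psmd12 (-0.37), Cpt2 (-0.57), Sdhd (-0.46), Ndufb8 (-0.26) and Ndufb5 (-0.46). Genes past the unadjusted threshold in liver only and higher in XO were Chordc1 (0.69), Mrpl46 (0.56), Polr1d (0.52), Aamdc (0.51), Sec13 (0.51), Uqcrc2 (0.40), Mrpl38 (0.49), Psmd10 (0.23) and Eif4h (0.42). The same pattern was called for Eif2b5 (0.30), Suclg1 (0.42), Ndufa10 (0.50), Ndufb6 (0.34), Ndufs3 (0.29), Ndufb7 (0.41), Ndufab1 (0.38), Ndufa4 (0.20) and Ndufa7 (0.23). Genes past it in liver only and lower in XO were Ass1 (-0.86), Ctnnb1 (-0.75), Lacc1 (-0.71), Wfdc21 (-0.70), Cpeb4 (-0.67), Lamp2 (-0.37), Zdhhc9 (-0.35), Pja1 (-0.30) and Maob (-0.26). The same pattern was called for Ddx3x (-0.47), Huwe1 (-0.45), Slc6a8 (-0.35), Ogt (-0.24), Atp5pb (-0.34), Rps20 (-0.34), Ehhadh (-0.65), Cpt1a (-0.17) and Etfa (-0.34). Also of this kind were Gapdh (-0.26), Dld (-0.43), Dlst (-0.34), Ndufs4 (-0.42) and Ndufa12 (-0.32). Genes past it in muscle only and higher in XO were Ifi27l2a (-0.97), Pla1a (-0.57), Rbm47 (-0.51), Rpl36 (-0.50), Thbd (-0.48), Atp5md (-0.46), Rpl36a (-0.42), Eif2s2 (-0.30) and Usp9x (-0.19). The same pattern was called for Ndufa13 (-0.40), Ndufb3 (-0.28) and Ndufa5 (-0.30). Genes past it in muscle only and lower in XO were Cd8b1 (0.58), Exoc7 (0.52), Lamb2 (0.49), Synpo2l (0.46), Actb (0.46) and Idh3g (0.31). Genes with effects of the same sign in both tissues were Xist (-1.31), Eif2s3x (-0.42), Mmp13 (0.82) and Pbdc1 (0.26). The XO pools were at the bottom of the scale for Xist, so that its value is not an order between the tissues. Called probes of both signs were found for Actb and for Rpl23, whose second called probe had an interaction of 0.13.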

How the results depend on the processing

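Counts of called interactions varied more with the pools used than with how the arrays were normalised. With XpO pools only against XX, the interaction had 107 calls, liver 73, muscle 1, the mean effect 34, opposing probes 69, agreeing 25 and probes of 1 tissue 37, beside 1753, 1330, 6, 270, 631, 114 and 1108 with all pools. XmO pools only gave 1151 for the interaction, 653 in liver and 632 probes of 1 tissue. The fewer samples enter by construction, and the share owed to genotype was not tested. With the spread taken over all 36 arrays the counts were 955 for the interaction, 876 in liver, 185 in muscle, 159 for the mean effect, 404 opposing, 67 agreeing and 550 of 1 tissue. The mean of the probes of a gene, with fewer units tested, gave 934, 809, 11, 160, 347, 67 and 582 in the same order. Brighter probes only gave 1095 for the interaction and 336 opposing.

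Median scaling gave 868 calls in muscle, 2189 for the mean effect, 400 opposing and 800 agreeing probes. Its splits by direction stand in the report. The interaction of Gapdh was 0.0817 under it and -0.26 otherwise, the only change of direction among 224 values of named genes. Quantiles from the log2 intensities of 17 arrays gave 22 calls in muscle and 157 for the mean effect, all probes without a filter gave 39, 168 and 1127 opposing, and normexp gave 176 for the mean effect. For each of these the cause was not tested.

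Leaving out each array, or each pool in both tissues, gave 406 to 1743 calls for the interaction, 193 to 1208 in liver, 1 to 12 in muscle, 48 to 308 for the mean effect, 210 to 649 opposing, 36 to 130 agreeing and 191 to 1105 of 1 tissue. Without liver XX pool 3 there were 715 for the interaction, 193 in liver, 54 for the mean effect, 350 opposing, 36 agreeing and 360 of 1 tissue. Leaving XX pool 3 out of both tissues gave 406, 193, 48, 210, 38 and 191. Leaving XX pool 1 out of both gave 909, 631, 118, 403, 62 and 502, with 3 in muscle. XX pool 2 left out gave 1 in muscle, XpO pool 1 gave 3 and XpO pool 3 gave 12. XmO pool 1 left out gave 1149 for the interaction, 864 in liver, 2 in muscle, 144 for the mean effect, 70 agreeing and 679 of 1 tissue. XmO pool 2 gave 1156, 1 in muscle, 169 for the mean effect and 696 of 1 tissue, and XmO pool 3 gave 177 for the mean effect and 734 of 1 tissue. Of 224 values of named genes, 81 calls were lost without XX pool 3 in both tissues and 58 without it in liver.

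The same pool names recur in each tissue, although the sources do not state that a pool held the same mice in each. Deviations of same-named pools correlated at 0.0974 to 0.224, and each pool was closest to its own name (9 of 9). A fit with the pool as a replicate block gave 1417 calls for the interaction, 689 positive, 528 opposing probes and 857 of 1 tissue. The mean effect was fitted with the liver and muscle arrays as independent and was not refitted with this block. The agreeing calls were thus not checked for the correlation of pools. Among named genes 23 calls were lost and 6 gained, those lost being Mup2, Amy1, Wfdc21, Ifi27l2a, Pla1a, Rbm47, Maob, Huwe1, Pbdc1, Ogt and Dld among the genes of the report. With 3 XX pools per tissue, differences smaller than the spread between pools were not detectable, and dim probes have compressed values.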
